A study of Mus musculus with 39 samples.

Results

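The comparison described here was the genotype effect in the uninjured sciatic nerve. It held all 21 healthy libraries of a series of 39, chosen by their labels as contralateral nerves, with 11 *Lepr*-cKO against 10 *Lepr*-ctrl libraries. Every library came from a different mouse of a C57BL/6 background, and the tissue was the endoneurium of the distal sciatic nerve. Mice of both genotypes carried floxed leptin receptor alleles (*Lepr* fl/fl), and *Lepr*-cKO mice also carried the *Dhh*-Cre transgene. The other sciatic nerve of each mouse had been crushed, so that the healthy nerves came from injured animals, sampled 2 weeks post-crush (2 wpc, 5 *Lepr*-ctrl and 6 *Lepr*-cKO) or 4 wpc (5 and 5). The study's methods give an age of 2 to 4 months, matched within each experiment. By *Xist* and *Ddx3y*, the *Lepr*-ctrl mice were 6 females and 4 males, and the *Lepr*-cKO mice 7 females and 4 males. The 18 injured nerves were used to set the same genes beside the healthy values, in a test of the difference between the genotype effects and in 1 alternative fit.

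Leptin is a hormone secreted by adipocytes, and its receptor LEPR signals through the kinase JAK2 to the transcription factor STAT3, with SOCS3 as a feedback inhibitor. In peripheral nerve, Schwann cells wrap axons in myelin, and they secrete desert hedgehog, encoded by *Dhh*, which acts through the receptor PTCH1 on surrounding mesenchymal cells to build the perineurial sheath. *Dhh*-Cre expresses the recombinase from *Dhh* regulatory sequences and is active in the Schwann cell lineage from embryonic stages, and the study describes a truncated receptor without its signal peptide as the product of the recombined gene. Every *Lepr*-cKO library carried both the transgene and the floxed alleles exposed to Cre, and no library carried the transgene alone, so that effects of the transgene and of *Lepr* recombination cannot be told apart.

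Libraries held 22717084 to 45016322 counts, with medians of 33098191 in *Lepr*-ctrl and 34482889 in *Lepr*-cKO, and at the lowest total a gene at 1 CPM, the unit of counts scaled to the library total, had 22.7 counts. At 4 wpc, WT-168Snc (*Lepr*-ctrl) and KO-169Snc (*Lepr*-cKO) stood apart, for example in *Kmt2d*, at 179.5 and 197.9 CPM against 291 to 384 CPM in the other libraries of that cohort, and KO-177Snc (*Lepr*-cKO) stood apart in mitochondrially encoded genes. Without WT-168Snc and KO-169Snc the count of genes past the adjusted p and the fold was 12, as with them. The myelin gene *Pmp22* was at 22504 ± 1849.7 CPM (SD, n = 10) in *Lepr*-ctrl. This level marks myelinated nerve and cannot tell endoneurium from nerve with its outer sheaths. Of 55573 genes in the files, 16846 had enough counts to be tested. P-values measure the spread between these mice.

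The targeted gene *Lepr* (ENSMUSG00000057722, chr4:101717404-101815352, plus strand, GRCm38) was read at similar low levels in both genotypes. Its values were 5.62, 7.10 and 10.3 CPM (lowest, median, highest) in *Lepr*-ctrl and 5.58, 8.11 and 14.0 CPM in *Lepr*-cKO. The ranges overlapped over almost their whole length, and the log2 fold change was 0.22 (SE 0.16, 95% confidence interval -0.11 to 0.55, adjusted p = 0.999, edgeR). The recombined stretch is a small part of the gene and the counts are summed over the gene, so that they do not check its deletion. The first coding stretch is printed to give its size, with the start codon in capitals. It lies at chr4:101728030-101728069 on the plus strand, in exon 2 of ENSMUST00000037552.9, and holds 40 of 3486 coding bases (1.15%), while its exon of 60 bases makes up 0.851% of the exonic bases of the gene. Whether it is the exon removed in these mice cannot be read from the counts.
Lepr first coding stretch: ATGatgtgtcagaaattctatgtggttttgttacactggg
*Leprot*, the neighbouring gene for a protein that regulates receptor trafficking, was at 59.4 CPM in *Lepr*-ctrl and 60.9 CPM in *Lepr*-cKO, a log2 fold change of 0.030 (SE 0.038, 95% confidence interval -0.049 to 0.11).

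Few genes differed between the genotypes in healthy nerves, and all that did were higher in *Lepr*-cKO. With the cohort (2 wpc or 4 wpc) as a block, 12 of 16846 genes (0.0712%) passed both an adjusted p of 0.05 and a log2 fold change of 1 in either direction (edgeR), and 14 (0.0831%) passed the adjusted p alone. At an unadjusted p under 0.05 there were 604 genes, of which 347 (2.06%) were higher and 257 (1.53%) were lower in *Lepr*-cKO. The 14 called genes fell into 2 groups. The first was 3 adjacent genes on chromosome 15, *Dhh*, *Gm49442* and *Lmbr1l*, and these were also the 3 genes (0.0178%) for which every *Lepr*-cKO library lay above every *Lepr*-ctrl library, while no gene showed the opposite separation. The second was 11 genes on other chromosomes, most of them genes of adipocytes. The test left little room for large differences elsewhere, since the 95% confidence interval of the fold change lay within ±1 on the log2 scale for 96.1% of genes and within ±0.5 for 78.2%. The median log2 fold change over all genes was 0.0040, and 52.1% of all genes had a fold change above 0.

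The increase in counts at the chromosome 15 locus was seen for the driver gene itself. *Dhh* (chr15:98891152-98898540, minus strand) was at 387 ± 24.4 CPM (SD, n = 10) in *Lepr*-ctrl, with a range of 342 to 432 and a median of 382. In *Lepr*-cKO it was at 540 ± 41.6 CPM (SD, n = 11), with a range of 462 to 600 and a median of 541. The ranges did not meet. The log2 fold change was 0.48 (SE 0.048, 95% confidence interval 0.38 to 0.58, adjusted p = 5.48e-06, edgeR). Its counts thus rose without passing the fold threshold. In a fit of all 39 libraries, in which the injured nerves also set the spread, the adjusted p was 0.704 (edgeR). The sequence of the *Dhh*-Cre transgene was not available, so whether reads from it were counted at this locus was not tested.

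*Gm49442* (ENSMUSG00000116033, chr15:98893351-98895175, plus strand), an annotated antisense transcript within the span of *Dhh*, rose most of the 3 genes. Its level was 4.18 ± 0.647 CPM (SD, n = 10; range 3.04 to 5.32, median 4.08) in *Lepr*-ctrl and 14.0 ± 2.03 CPM (SD, n = 11; range 10.7 to 16.4, median 14.2) in *Lepr*-cKO. The lowest *Lepr*-cKO library was above the highest *Lepr*-ctrl library by a wide margin. The log2 fold change was 1.76 (SE 0.086, 95% confidence interval 1.58 to 1.93, adjusted p = 1.17e-11, edgeR). Of its 1460 exonic bases, 1107 (75.8%) overlap exons of *Dhh* and 546 (37.4%) overlap exons of *Rhebl1*, both on the opposite strand. Whether counting used the strand is not given in the sources used here, so reads of *Gm49442* and *Dhh* in these bases may not be told apart.

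*Lmbr1l* (chr15:98903917-98918231, minus strand), which encodes a membrane protein of the LMBR1 family, ends 5377 bases upstream of the start of *Dhh* and shares no exonic base with it. Its level was 55.4 ± 6.05 CPM (SD, n = 10; range 47.2 to 64.1, median 55.3) among *Lepr*-ctrl mice and 105 ± 16.3 CPM (SD, n = 11; range 80.0 to 136.3, median 104) among *Lepr*-cKO mice. Again the genotypes did not overlap. The log2 fold change was 0.93 (SE 0.078, 95% confidence interval 0.77 to 1.09, adjusted p = 2.95e-07, edgeR).

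**Figure D1:**
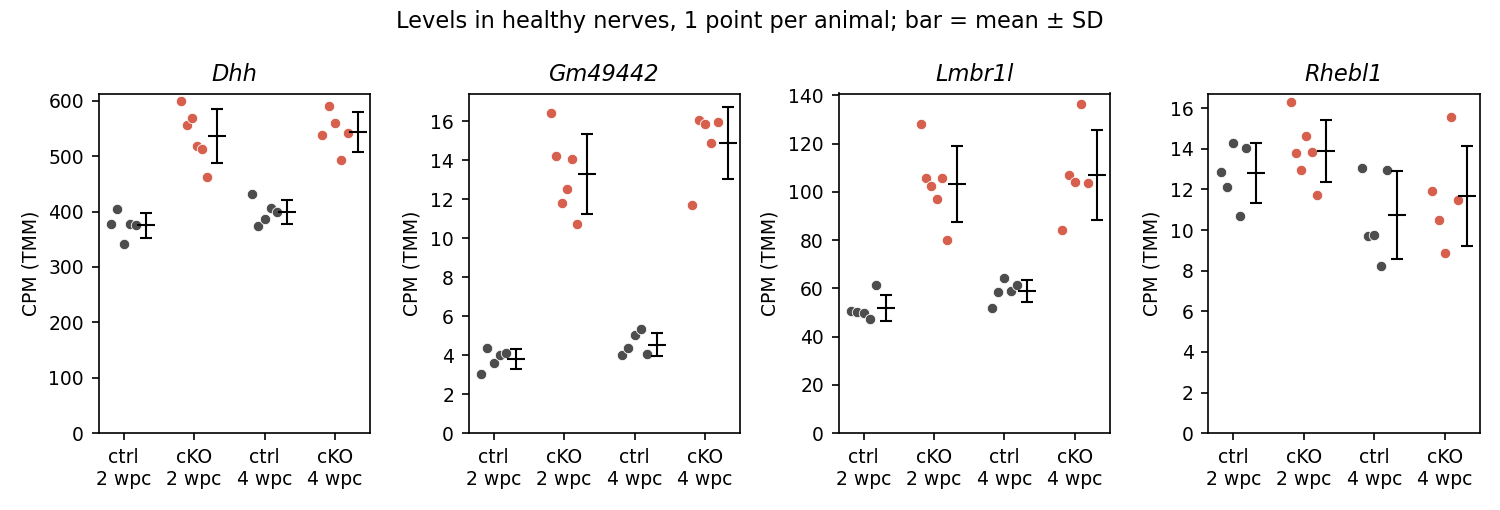
CPM (vertical axes from 0) of *Dhh*, *Gm49442*, *Lmbr1l* and the overlapping gene *Rhebl1* by genotype and cohort, where each point is 1 mouse and the bars are the mean ± SD of the group. For the first 3 genes every *Lepr*-cKO point lies above every *Lepr*-ctrl point, and for *Rhebl1* the points mix.

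Per kilobase of exon, the change in level differed from gene to gene along the locus. *Dhh* went from 88.1 to 122.8 CPM per kb, *Lmbr1l* from 12.8 to 24.2 and *Gm49442* from 2.87 to 9.60. In percent of the *Lepr*-ctrl level this was 39.4 for *Dhh*, 89.4 for *Lmbr1l* and 235 for *Gm49442*. *Rhebl1*, whose annotated span also overlaps *Dhh*, was at 3.88 and 4.24 CPM per kb, and its log2 fold change of 0.12 (95% confidence interval -0.078 to 0.31, adjusted p = 0.999) was not called.

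No other tested neighbour was called. Of 30 annotated genes within 200000 bases of *Dhh*, 20 were tested and these 3 were called. The histone methyltransferase gene *Kmt2d* had a log2 fold change of 0.0047 (95% confidence interval -0.22 to 0.23), and the tubulin gene *Tuba1b* beyond *Lmbr1l* had 0.060 (-0.051 to 0.17). The intervals for these 2 genes leave out changes of the size seen in *Dhh*. Around *Lepr*, 13 genes are annotated within the same distance and 3 were tested, none of which was called.

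**Figure D2:**
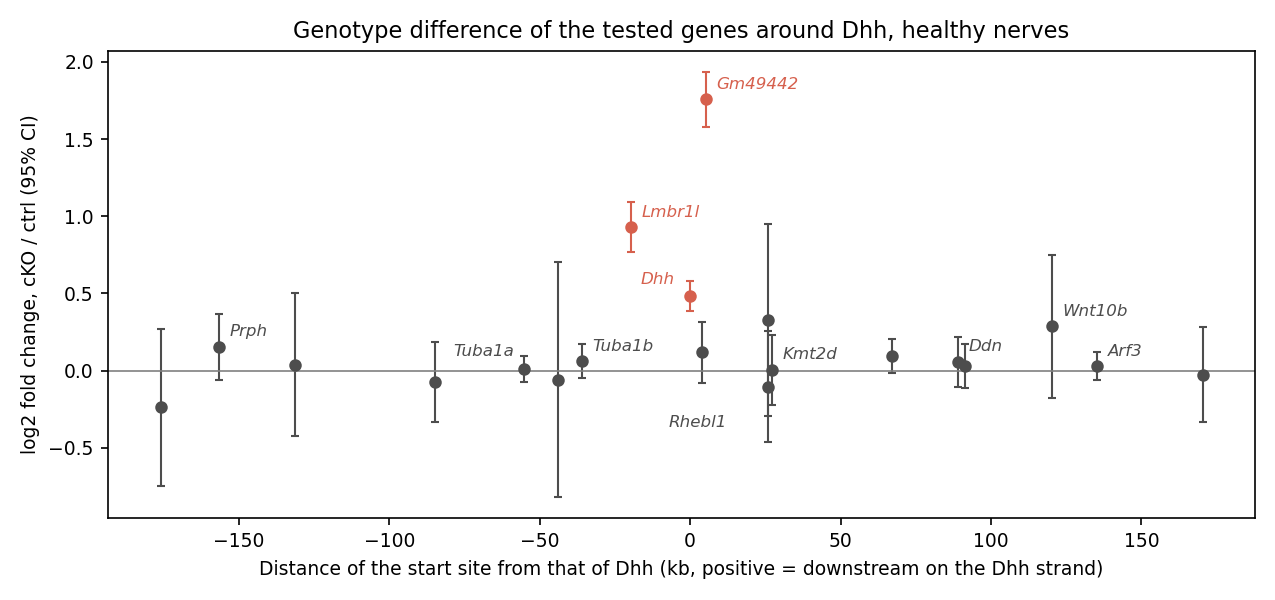
Genotype effect in healthy nerves (log2, *Lepr*-cKO over *Lepr*-ctrl) for the tested genes near *Dhh*, by the distance of their start site from that of *Dhh* in kb, positive downstream, with bars for 95% confidence intervals. The intervals of *Dhh*, *Gm49442* and *Lmbr1l* (red) lie above 0, and those of the other genes (grey) include 0.

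The sequence before the start site of each protein-coding gene is given because 2 genes transcribed from the same strand rose together. The 250 bases before each start came from RefSeq (GRCm38), chr15:98898541-98898790 for *Dhh* and chr15:98918099-98918348 for *Lmbr1l*, both read on the minus strand. The RefSeq start of *Lmbr1l* lies inside the span given for the gene here, so that 133 of its 250 bases are within that span. Capitals mark matches to the EGR letters GTGGGCG or GGGGGCG on either strand, and the SOX letters ACAATG and ACAAAG were searched in the same way.
Dhh promoter: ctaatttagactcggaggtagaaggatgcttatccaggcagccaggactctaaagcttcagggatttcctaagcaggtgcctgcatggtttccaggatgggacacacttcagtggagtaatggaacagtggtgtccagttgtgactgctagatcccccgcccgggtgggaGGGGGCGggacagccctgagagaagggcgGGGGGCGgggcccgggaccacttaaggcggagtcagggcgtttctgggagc
Lmbr1l promoter: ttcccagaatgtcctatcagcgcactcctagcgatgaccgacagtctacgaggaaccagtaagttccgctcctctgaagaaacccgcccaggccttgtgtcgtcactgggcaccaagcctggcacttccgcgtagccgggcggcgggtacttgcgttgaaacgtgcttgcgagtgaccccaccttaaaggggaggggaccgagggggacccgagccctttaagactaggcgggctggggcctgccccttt
The *Dhh* window held 2 EGR matches and 0 SOX matches, and the *Lmbr1l* window held neither. EGR letters occurred in 19.7% and SOX letters in 25.2% of the 32851 promoters of the same table. The windows were 59.6% (*Dhh*) and 61.6% (*Lmbr1l*) GC, against a median of 52.4%. A match of letters is a description and does not show a site.

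The 3 genes of the locus were called in each cohort, whose mice did not overlap. In the 2 wpc cohort 1 gene passed the adjusted p and the fold (0.00594%) and 3 passed the adjusted p (0.0178%), and the same counts were found in the 4 wpc cohort, 1 (0.00594%) and 3 (0.0178%). The fold changes in the 2 wpc and 4 wpc cohorts were 0.52 and 0.45 for *Dhh*, 1.80 and 1.71 for *Gm49442*, and 0.99 and 0.86 for *Lmbr1l* on the log2 scale. The adjusted p of *Dhh* at 4 wpc was 0.0151, and when single libraries were left out it reached 0.0997. In the test of the genotype effect at 4 wpc minus that at 2 wpc, no gene was called (0 of 16846, 0%) by edgeR or by DESeq2, with 650 genes at an unadjusted p under 0.05 and a smallest adjusted p of 0.999. The interval of this difference was -0.27 to 0.13 for *Dhh*, -0.45 to 0.27 for *Gm49442* and -0.46 to 0.19 for *Lmbr1l*.

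Over all tested genes, the 2 cohorts gave fold changes of the same sign for 48.4% of genes, and across the 16846 genes Spearman's correlation was -0.020 and Pearson's 0.41 (genes share libraries within each cohort and are not independent). Of the 590 genes at an unadjusted p under 0.05 in the 2 wpc cohort, 301 (51%) had the same sign in the 4 wpc cohort, with a Spearman's correlation of 0.23, and of the 56 genes at an unadjusted p under 0.05 in both cohorts 48 had the same sign. The 14 genes called over both cohorts had the same sign in each, as the choice of such genes favours.

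**Figure D3:**
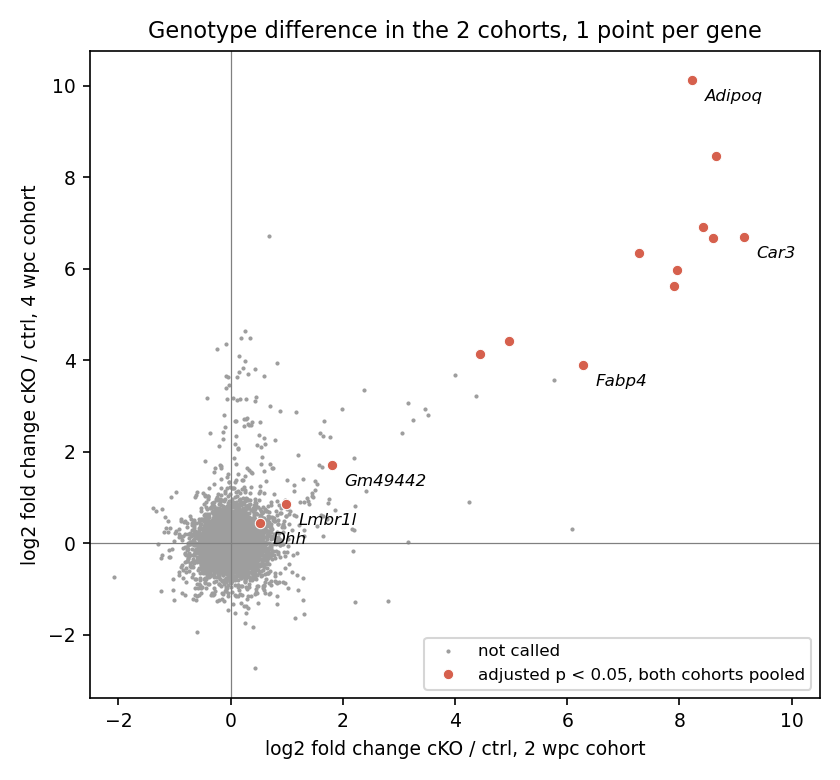
Genotype effect (log2, *Lepr*-cKO over *Lepr*-ctrl) in the 2 wpc cohort (horizontal) and in the 4 wpc cohort (vertical), 1 point per tested gene, with the 14 called genes in red. Most genes lie in a cloud around 0 and the called genes in the upper right, where the fitted values of genes with almost no counts in *Lepr*-ctrl depend on the model and are not bounds.

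In the injured nerves, the same locus was higher in *Lepr*-cKO. *Dhh* was at 134.5 ± 58.5 CPM (SD, n = 9) in *Lepr*-ctrl and 288 ± 69.6 CPM (SD, n = 9) in *Lepr*-cKO, and the ranges of 66.0 to 204 and 159 to 389 overlapped. Its log2 fold change there was 1.20 (adjusted p = 1.37e-05, edgeR), that of *Gm49442* was 1.84 (adjusted p = 8.3e-07) and that of *Lmbr1l* was 0.84 (adjusted p = 0.000499). The genotype effect in injured nerves minus that in healthy nerves was 0.72 for *Dhh* (SE 0.20, 95% confidence interval 0.32 to 1.12), 0.088 for *Gm49442* (-0.43 to 0.61) and -0.086 for *Lmbr1l* (-0.43 to 0.26). Across 18442 genes none of these differences passed the adjusted p (0 called, 0%, edgeR), with 1285 genes at an unadjusted p under 0.05, an adjusted p of 0.684 for *Dhh*, and 6 genes called by DESeq2.

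The other 11 called genes were close to 0 in all *Lepr*-ctrl nerves and high in part of the *Lepr*-cKO nerves. *Adipoq*, which encodes the adipocyte hormone adiponectin, had at most 2 counts in any *Lepr*-ctrl library. In *Lepr*-cKO its lowest, median and highest values were 0.0263, 1.12 and 22.5 CPM. The mean was at least 57.9-fold higher, taking *Lepr*-ctrl at 3 counts per library (adjusted p = 0.0107, edgeR). By the same bound, *Cidec*, which encodes a lipid droplet protein, was at least 64.0-fold higher (adjusted p = 0.0107) and *Plin1*, which coats the lipid droplet, at least 31.4-fold (adjusted p = 0.0177). *Pck1*, for a gluconeogenic and glyceroneogenic enzyme, was at least 29.1-fold higher (adjusted p = 0.0134), *Cyp2f2*, for a cytochrome P450, at least 9.21-fold (adjusted p = 0.033), and *Adrb3*, for the adipocyte adrenergic receptor, at least 7.0-fold (adjusted p = 0.0322).

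The 5 others had some counts in *Lepr*-ctrl. *Car3*, a carbonic anhydrase of adipocytes and muscle, was at 0.198 ± 0.269 CPM (SD, n = 10) in *Lepr*-ctrl and 37.0 ± 47.8 CPM (SD, n = 11) in *Lepr*-cKO, where its range was 0.105 to 129 with a median of 11.1 (log2 fold change 7.66, adjusted p = 0.008, edgeR). The adipokine *Cfd* (adipsin) rose from 0.200 to 32.4 CPM (adjusted p = 0.00847), *Cyp2e1* from 0.108 to 15.1 CPM (adjusted p = 0.0107), the fatty acid carrier *Fabp4* from 0.657 to 23.7 CPM (adjusted p = 0.0235), and resistin, *Retn*, from 0.105 to 2.53 CPM (adjusted p = 0.0322). For each of the 11 genes, 7 to 10 of the 11 *Lepr*-cKO libraries lay above every *Lepr*-ctrl library. The SD in *Lepr*-cKO was above the mean for all 11 genes. None of the 11 was called by edgeR in either cohort alone, while DESeq2 called 9 of them at 2 wpc and 4 at 4 wpc. Voom with quality weights called none of them, and with single libraries left out the count of genes past the adjusted p and the fold was 6 to 14, lowest without *Lepr*-ctrl libraries SLRKO2wpc120c, SLRKO2wpc130c or SLRKO2wpc131c.

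The increase was uneven between libraries. *Adipoq* was above 1 CPM in 7 of 11 *Lepr*-cKO libraries, with 3 of 6 at 2 wpc and 4 of 5 at 4 wpc, and in 0 of 10 *Lepr*-ctrl libraries. It was above 1 CPM in 4 of 4 male and 3 of 7 female *Lepr*-cKO mice, and in none of the 4 male and 6 female *Lepr*-ctrl mice. The other 4 *Lepr*-cKO libraries held 0.0263 to 0.116 CPM. When the 7 libraries were left out, an alternative chosen after seeing the data, 3 genes remained at an adjusted p under 0.05, the 3 of the chromosome 15 locus. The 7 were picked by *Adipoq* itself, so the loss of it and of genes that go with it was fixed by that choice. In injured nerves *Adipoq* was above 1 CPM in 4 of 9 *Lepr*-ctrl and 5 of 9 *Lepr*-cKO libraries, with highest values of 26.5 and 109 CPM. In bulk tissue, more cells of a type and more RNA per cell cannot be told apart, nor can fewer cells and less RNA per cell. In the study's adipocyte reporter mice at 4 wpc, labelled cells lay in the epineurium, outside the endoneurium. The study's methods describe removal of the perineurium before RNA was taken. Whether outer tissue was carried over in dissection was not tested.

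**Figure D4:**
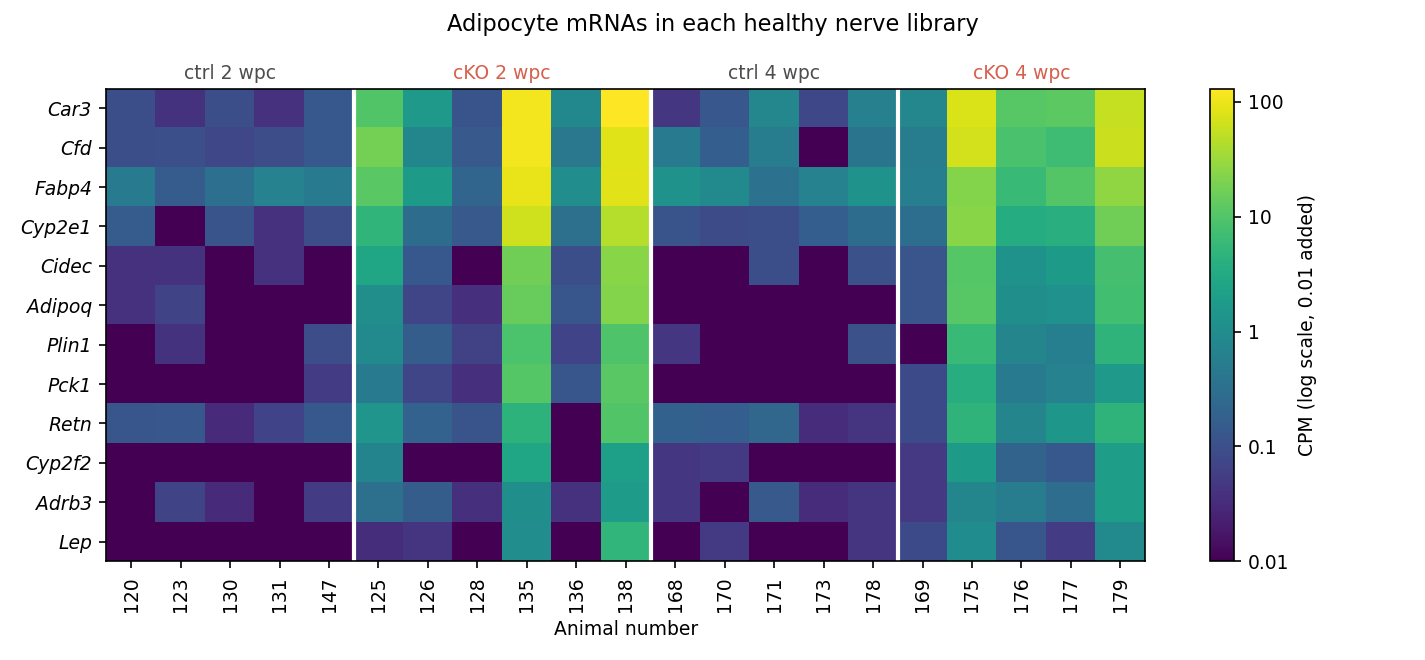
Heat map of the 11 called genes and *Lep* (lines) in the 21 healthy libraries (columns, by animal number within genotype and cohort), with colour for CPM on a log scale after adding 0.01. The brightest columns are the 7 *Lepr*-cKO libraries with *Adipoq* above 1 CPM, and the *Lepr*-ctrl columns stay dark.

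Of 14 adipocyte genes listed, 11 were tested and 8 were called, all higher, beside 14 of 16846 genes (0.0831%) over all. The median log2 fold change was 6.83, or 4.97 with the 4 genes at the floor set to their bounds. These 4 had at most 3 counts in every *Lepr*-ctrl library, so they passed the expression filter only through *Lepr*-cKO libraries. *Retn*, with at most 5 counts in any *Lepr*-ctrl library, passed in the same way. *Car3* and *Cfd* reached a count of 10 in too few *Lepr*-ctrl libraries to pass by those alone. The share called and the median thus rest largely on genes let in by the group where they are high. *Cyp2e1*, *Adrb3* and *Cyp2f2*, called but not on the list, were let in likewise. Not every gene of the list was near 0 in *Lepr*-ctrl. *Plin4* was at 67.6 and 60.5 CPM and *Lipe*, for hormone-sensitive lipase, at 11.5 and 14.3 CPM, and the summed level was 37.0 to 190 CPM in *Lepr*-ctrl and 40.7 to 507 CPM in *Lepr*-cKO. Genes of 2 other tissues around the endoneurium were read for the same libraries. All 10 perineurial genes tested were higher, none called and 1 at an unadjusted p under 0.05, with a median log2 fold change of 0.62 (0.12 at 2 wpc and 1.51 at 4 wpc), summing to 1029.6 to 1613 CPM in *Lepr*-ctrl and 1158 to 1721 CPM in *Lepr*-cKO. The perineurial keratin gene *Krt19*, not called, was over both cohorts at 0.0231 to 17.7 CPM in *Lepr*-ctrl and 0.0263 to 17.5 CPM in *Lepr*-cKO. *Krt19* ranged from 0.600 to 17.5 CPM in the 7 *Lepr*-cKO libraries high in *Adipoq* and from 0.0263 to 15.2 CPM in the other 4. Without the 7 libraries the perineurial genes were again all higher, with a median of 0.30 and none at an unadjusted p under 0.05. Of 15 skeletal muscle genes 14 were higher, none called by edgeR, with a median of 0.51 (0.61 at 2 wpc and 0.025 at 4 wpc). Of these, 8 were higher at an unadjusted p under 0.05, beside 347 of 16846 genes (2.06%) over all. DESeq2 called *Ckm* of this list in the 2 wpc cohort (log2 fold change 2.78, adjusted p = 0.00554). The muscle genes summed to 35.7 to 58.0 CPM in *Lepr*-ctrl and 38.6 to 78.9 CPM in *Lepr*-cKO. Without the 7 libraries 19 muscle genes were tested and 17 were higher, with a median of 0.75 and 11 at an unadjusted p under 0.05. These levels of perineurium and muscle stand beside the adipocyte result, and their part in it was not tested.

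No gene of leptin receptor signalling was called. Of 29 tested, 0 passed in edgeR and 0 in DESeq2, 1 had an unadjusted p under 0.05, 15 were higher and 14 lower, and the median log2 fold change was 0.0037, beside 0.0040 over all genes. *Stat3* was at 162 CPM in *Lepr*-ctrl and 159 CPM in *Lepr*-cKO, a log2 fold change of -0.018 (95% confidence interval -0.12 to 0.083). The interval was -0.20 to 0.063 for *Jak2*, -0.13 to 0.30 for *Socs3* and -0.093 to 0.15 for *Mapk3*, the ERK1 kinase gene. The exception at the unadjusted p was *Cish*, a STAT5 target and cytokine feedback inhibitor, at 0.965 and 1.69 CPM (log2 fold change 0.81, adjusted p = 0.999). For 28 of the 29 genes the interval lay within ±1.

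Hedgehog signalling was read because the locus called held its Schwann cell ligand. Of 17 genes tested, *Dhh* was the only one called, 12 were higher and 5 lower, and the median log2 fold change was 0.13. The receptor and target *Ptch1* was at 116 CPM in *Lepr*-ctrl and 134 CPM in *Lepr*-cKO, with a log2 fold change of 0.22 (95% confidence interval -0.17 to 0.61). The target and effector *Gli1* was at 42.1 and 46.6 CPM (0.14, -0.27 to 0.55), and the signal transducer *Smo* had 0.046 (-0.094 to 0.19). The co-receptor *Boc* had 0.61 (unadjusted p = 0.0505, edgeR). These intervals include no change for *Ptch1* and *Gli1* and also an increase of the size seen in *Dhh*.

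Myelin and Schwann cell genes lay close to 0. Of 20 myelin genes, none was called or had an unadjusted p under 0.05, the median log2 fold change was -0.0054, and every interval lay within ±1. *Pmp22*, for a membrane protein of compact myelin, was at 22504 CPM in *Lepr*-ctrl and 22485 CPM in *Lepr*-cKO (log2 fold change -0.0090, 95% confidence interval -0.12 to 0.10). For *Mbp*, the gene of myelin basic protein, the interval was -0.19 to 0.18. Of 18 Schwann cell transcription factors none was called, with a median of -0.012 and values of 0.084 for *Sox10* and 0.033 for *Egr2*, the driver of myelination. Of 16 repair Schwann cell genes and of 12 genes of Remak and immature Schwann cell adhesion none was called, with medians of 0.090 and 0.053. Autophagy genes (34 tested) had a median of -0.0087, cholesterol synthesis genes (23) -0.017 and fatty acid synthesis genes (16) -0.0059, with none called by edgeR in any of these lists. DESeq2 called *Thrsp* of the fatty acid list.

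Energy metabolism showed small shifts of which none passed the adjusted p. Of 73 nuclear-encoded OxPhos genes 55 were higher, beside 52.1% of genes over all. None had an unadjusted p under 0.05, the median was 0.027 and every interval lay within ±1. Of 22 genes of glycolysis and lactate 18 were higher, with a median of 0.054 and 2 genes at an unadjusted p under 0.05, *Pfkl* and the lactate exporter *Slc16a3*. Of the 13 mitochondrially encoded OxPhos genes 7 were tested and all 7 were higher, with a median of 0.17. Of these, 4 had an unadjusted p under 0.05, beside 347 of 16846 genes (2.06%) higher over all. These 7 summed to 33935 CPM in *Lepr*-cKO library KO-177Snc, against 20006 to 22202 CPM in the other 4 libraries of its group. Without KO-177Snc, an alternative chosen after seeing the data, all 7 were still higher. Their median was then 0.088 and 0 genes had an unadjusted p under 0.05.

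Among the cells that share the endoneurium with Schwann cells, no gene of the lists was called. All 17 macrophage genes were lower in *Lepr*-cKO, with no unadjusted p under 0.05 and a median log2 fold change of -0.25 (-0.077 at 2 wpc and -0.45 at 4 wpc). Their summed level was 392 to 790 CPM in *Lepr*-ctrl and 279 to 784 CPM in *Lepr*-cKO. Without the 7 libraries high in *Adipoq*, 13 of the 17 were lower and 4 higher, with a median of -0.15 and 1 at an unadjusted p under 0.05. Of 14 endoneurial fibroblast genes 12 were lower, with a median of -0.24. Beside 257 of 16846 genes (1.53%) lower over all, 6 of these 12 had an unadjusted p under 0.05. Among these was *Pdgfra*, the receptor that marks fibroblasts, at 101 and 71.2 CPM (log2 fold change -0.53, 95% confidence interval -0.85 to -0.21, adjusted p = 0.813, edgeR), with *Gsn* at -0.27 and *Dcn* at -0.34. The 2 that were higher, *Dpt* (0.77) and *Pi16* (0.68), also had an unadjusted p under 0.05, and they mark fibroblasts of adventitial type. Without the 7 libraries 15 fibroblast genes were tested and 12 were lower, with a median of -0.27 and 2 at an unadjusted p under 0.05. All 18 genes of vessels and pericytes were higher, with a median of 0.13 and no unadjusted p under 0.05.

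**Figure D5:**
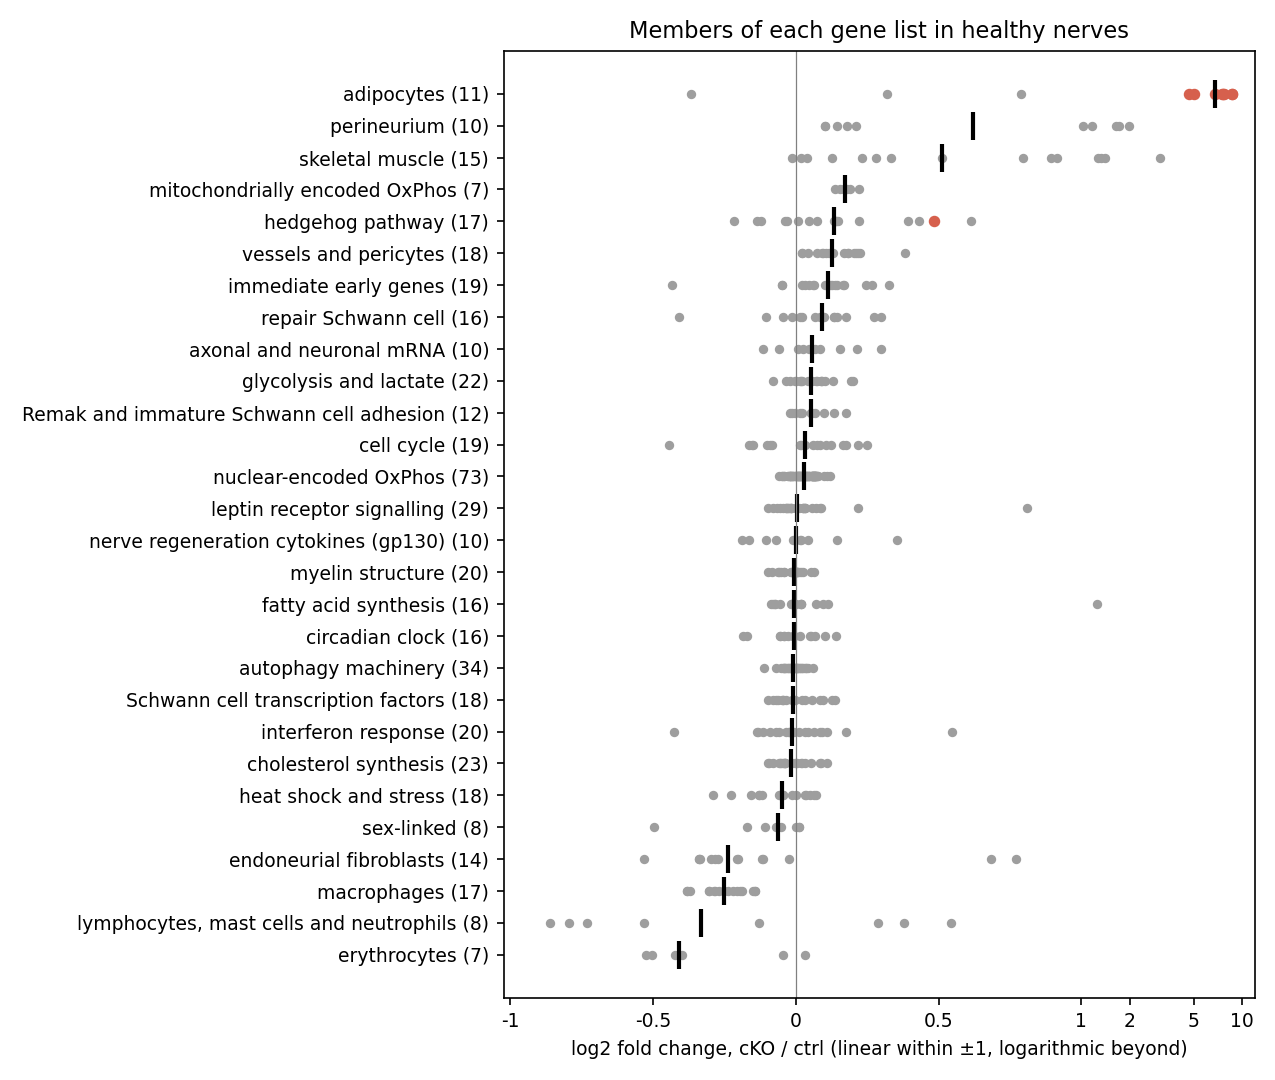
Genotype effect (log2, *Lepr*-cKO over *Lepr*-ctrl) for each tested gene (points) of the gene lists, with the number tested in parentheses, called genes in red, a black bar at the list's median and a line at 0, on an axis that is linear within ±1 and logarithmic beyond. The adipocyte list reaches furthest from 0, and the medians of the other lists lie between -0.41 and 0.62.

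The genes next in order were higher or lower without passing the adjusted p. With a mean log2 CPM above 1 and the same sign in both cohorts, those highest in rank were *Thrsp*, a regulator of lipogenesis, at 1.84 and 4.29 CPM (log2 fold change 1.25, adjusted p = 0.0897, edgeR, and 0.000664 in DESeq2), *Lhpp* (0.24), *Slc27a3* (0.42), *Ccdc80* (1.28), *Wrap53* (0.21), *Plvap* (1.83), *Smoc1* (0.24) and *Gpx3* (0.89). The lower genes in the same rank were *Adam19*, for a metalloprotease, at 30.6 and 24.5 CPM (-0.31, adjusted p = 0.478), *Scara5* (-0.51), *Zfp365* (-0.31), *Pdgfra* (-0.53), *Gxylt2* (-0.46), *Steap3* (-0.34), *Ccl11* (-0.49) and *Sec16b* (-0.31). *Plvap*, a gene of fenestrated endothelium, was at 1.498 CPM in *Lepr*-ctrl and 6.06 CPM in *Lepr*-cKO, and without the 7 libraries high in *Adipoq* its log2 fold change was -0.034.

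The block for cohort removed a larger difference than the genotype. Between the 2 cohorts, 104 genes (0.617%) passed the adjusted p and the fold and 4787 (28.4%) passed the adjusted p. Of 16 circadian clock genes tested 11 had an adjusted p under 0.05, with *Arntl* at 2.08 and *Dbp* at -1.13 (4 wpc minus 2 wpc, log2), and of 19 immediate early genes 14 did, with *Fosb* at -5.21 and *Egr1* at -3.27. Neither list had a gene called for the genotype, and their medians for it were -0.0084 and 0.11.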

How the data were processed

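Endoneurial RNA of the distal sciatic nerve was sequenced by the authors. The deposited values are raw gene counts per library, made by the authors and neither normalized nor filtered. The submitters' processing notes name bcl2fastq 2.20.0.422, STAR 2.5, featureCounts 1.5.0-p1 and the build GRCm38. The use of strand and of reads with several alignments is not given in the sources used here, which leaves the counts of overlapping, antisense and copied genes uncertain.

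From these counts, genotypes were compared in R 4.3.3 with edgeR 4.0.16 (TMM, expression filter at a count of 10 and a total of 15, quasi-likelihood test, p-values adjusted by Benjamini-Hochberg), over the 21 healthy libraries with the cohort as a block. A gene was called at an adjusted p under 0.05, with and without an absolute log2 fold change above 1. The cohorts were also tested in a model of the 4 groups, and healthy against injured effects in a fit of all 39 libraries. CPM values used TMM factors, and intervals are at 95%. A gene with at most 3 counts in every *Lepr*-ctrl library was given as a bound. Gene names and positions came from GENCODE mouse release 21, which named 99.8% of genes. Sequences were matched by symbol to RefSeq promoters, found for 10 of the 14 called genes.

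Genes named were *Lepr*, the tested genes near *Dhh* and *Lepr*, the called genes, the 8 per direction with the smallest unadjusted p whose mean log2 CPM was over 1 and whose sign was shared by both cohorts, and the members of gene lists with the highest level. Other list members, and *Lep*, were chosen after their values were seen. The gene lists and the comparison were chosen with earlier results of these data known. Alternatives were DESeq2 1.42.0, voom with quality weights in limma 3.58.1, other scalings and filters, a term for sex, and each library left out. Scripts were tested on simulated data. Values of 1 member of the myelin list are not reported here.

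The nerves of 17 mice are paired by the animal number in the titles. Over 5000 genes, the correlation of the 2 nerves' deviations from their group means was -0.085 to 0.28 with a median of 0.12, and above 0.1 in 10 of 17 pairs. For the injured minus healthy effect the animal was also fitted as a block.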

Additional observations from a re-analysis of the deposited data

Results flagged for a closer look

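Of 75 groups of libraries examined, 3 held a library far from its others, and chance gives about 1 in 20. *Gm49442* was at 11.7 CPM in *Lepr*-cKO library KO-169Snc at 4 wpc, against 14.9 to 16.1 CPM in the other 4 libraries of its group. *Lmbr1l* was at 61.4 CPM in *Lepr*-ctrl library SLRKO2wpc147c at 2 wpc, against 47.2 to 50.8 CPM in the others. The mitochondrially encoded OxPhos genes summed to 33935 CPM in *Lepr*-cKO library KO-177Snc at 4 wpc, against 20006 to 22202 CPM.

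*Lep*, the gene of leptin itself, was removed by the expression filter and reached 5.15 CPM in *Lepr*-cKO library SLRKO2wpc138c at 2 wpc, while no *Lepr*-ctrl library was above 0.0399 CPM. It had a count in 9 of 11 *Lepr*-cKO and 2 of 10 *Lepr*-ctrl libraries, and the library was also the one highest in *Adipoq*. With no expression filter *Lep* was called by edgeR (adjusted p = 0.0346).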

How the results depend on the processing

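The number of genes called between genotypes in healthy nerves (12) was 21 with DESeq2, 21 with no expression filter, 3 in the fit of all 39 libraries, 1 with voom and quality weights, 1 with at least 10 counts in every library and 1 without the 7 *Lepr*-cKO libraries high in *Adipoq*. With each library left out it was 6 to 14, with 6 without *Lepr*-ctrl library SLRKO2wpc120c, SLRKO2wpc130c or SLRKO2wpc131c and 7 without SLRKO2wpc123c, SLRKO2wpc147c or WT-173Snc. It was 12 with DESeq2 size factors, without mitochondrially encoded genes in scaling, with a term for sex, without the block for cohort, and without WT-168Snc and KO-169Snc (added after seeing the data). The cause was not tested, except that the stricter filter removes genes near 0 in *Lepr*-ctrl from the test. Leaving out the 7 libraries, which were picked by *Adipoq*, fixed the loss of *Adipoq* in advance. DESeq2 called all 14 genes of edgeR at the adjusted p among its 23, and voom called 3, *Gm49442*, *Lmbr1l* and *Dhh*. DESeq2 called 13 genes in the 2 wpc cohort and 5 in the 4 wpc cohort, where leaving out libraries gave 1 to 2 and 1. *Gm49442* stayed at 1.71 to 1.79, *Lmbr1l* at 0.89 to 0.97 and *Dhh* at 0.46 to 0.50 with each library left out, while *Dhh* lost its call in the fit of all 39 libraries (adjusted p = 0.704, edgeR). *Plvap* turned from 1.83 to -0.034 without the 7 libraries. For the injured minus healthy effect, DESeq2 called 6 genes, and a fit with the animal as a replicate block called 0, as did the fit without that pairing, with 968 genes at an unadjusted p under 0.05 in edgeR. The block was run for no other effect.

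Depth limits genes under about 1 CPM, where single libraries hold few counts.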

Other observations

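Lists of processes that vary with handling of the tissue were read for the genotype as well. Of 18 heat shock and stress genes 13 were lower in *Lepr*-cKO, with a median log2 fold change of -0.050, and of 20 interferon response genes 11 were lower, with a median of -0.015. Cell cycle genes (19 tested) had a median of 0.031, axonal and neuronal mRNA (10) 0.055 and the gp130 cytokine list (10) 0.0015, where the ciliary neurotrophic factor receptor *Cntfr* was at 9.46 and 12.1 CPM (log2 fold change 0.36, unadjusted p = 0.0302, edgeR). Of 7 erythrocyte genes 6 were lower, with a median of -0.41, and of 8 genes of lymphocytes, mast cells and neutrophils 5 were lower, with a median of -0.33. None of these genes was called.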
